A study of Mus musculus with 32 samples.

Results

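Blood RNA of 3 Tsc2+/- mice was compared with blood RNA of 3 wild-type (WT) littermates, which together make 6 of the 32 arrays of the series. The members were taken by their labels, as all blood arrays of the Tsc2 experiment, and each array holds the RNA of 1 mouse. The other arrays hold the cerebellum of the same 6 mice, and the blood and cerebellum of Fmr1-KO mice with their own WT littermates. Tsc2+/- mice carry 1 disrupted copy of Tsc2 from the germline on, on a background that mixes C57BL/6J with another strain and that their WT littermates share. The labels name no treatment, the mice were killed at 8 to 10 weeks of age, and the blood was profiled whole. All values below are intensities of Affymetrix Mouse Gene 1.0 ST probe sets, and all differences are log2 differences, Tsc2+/- minus WT.

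Tsc2 encodes tuberin, which together with hamartin, the product of Tsc1, acts on the small GTPase Rheb and so restrains the growth kinase complex mTORC1. Loss of both copies releases mTORC1 in the affected cells, while cells with a single working copy keep part of the brake. In blood, mTOR signalling is known for its part in lymphocyte growth, in the differentiation of myeloid cells and in the maturation of red cells.

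The labels call all 6 mice female, whereas the study's methods describe males. The Y-linked genes Eif2s3y (536 to 875), Kdm5d (495 to 852) and Uty (560 to 1051) gave signal in the 6 blood arrays, and Xist, which silences 1 X chromosome in female cells, was at 40.7 to 58.9. The array median of 1035 probe sets for olfactory receptors, which blood hardly expresses, was 52.3 to 60. Xist was thus near that background in all 6 arrays and the Y-linked genes were well above it, the pattern of male mice. These signals go with the methods and against the label of sex. Genes that define blood were bright in all 6 arrays. Alas2, the first enzyme of red cell heme synthesis, was at 16190 to 18780, and Ptprc, the pan-leukocyte antigen CD45, at 4236 to 5289.

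The 6 samples did not hold the same mixture of cells. In platelets, fragments of megakaryocytes that carry their own RNA, the gene Tubb1 codes for a tubulin of the platelet ring. Tubb1 had an intensity of 41870, 1692 and 47100 in Tsc2+/- mice 1, 2 and 3, and of 54460, 30170 and 653 in WT mice 1, 2 and 3. Tsc2+/- mouse 2 and WT mouse 3 were thus far below the other 4. For Ppbp, a chemokine of platelet granules, the values were 11150, 1241 and 13090 in the Tsc2+/- mice and 15770, 12500 and 912 in the WT mice. The same pair of arrays held the lowest values for all 23 measured genes of the platelet list. Summed over that list, the intensity was 128500, 12390 and 160800 in the Tsc2+/- mice and 207200, 111300 and 8266 in the WT mice, against 195000 to 270300 in the 10 blood arrays of the Fmr1 experiment. In bulk RNA, fewer cells of a type and less RNA per cell cannot be told apart.

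Genes of immature T cells, which rearrange their receptor genes in the thymus, separated the arrays in a further way. These genes, and the hepatocyte, macrophage and airway genes that follow, were chosen after their values had been seen and are given as a description. Dntt, the polymerase that adds bases at receptor gene joints, was at 92, 1902 and 72.3 in the Tsc2+/- mice and at 81.7, 1259 and 9131 in the WT mice. Rag1, which cuts receptor genes, was at 81.5, 1523 and 66 against 100.2, 793 and 6851. In the Fmr1 experiment the blood values of Dntt ran from 58 to 116. WT mouse 3 was the highest of the 6 for all 11 measured genes of this group, and Tsc2+/- mouse 2 and WT mouse 2 came next for Dntt and Rag1. Proliferation genes were high in the same array. Top2a, the topoisomerase of dividing cells, was at 600, 1147 and 836 in the Tsc2+/- mice and at 958, 881 and 5802 in the WT mice.

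Transcripts of hepatocytes were present in 5 of the 6 arrays. Alb, the gene for serum albumin, was at 90750, 78060 and 14020 in the Tsc2+/- mice and at 102, 20230 and 112400 in the WT mice. Its range in blood of the Fmr1 experiment was 61.5 to 153, so that WT mouse 1 alone was like those arrays. Cyp2e1, an alcohol-oxidizing enzyme of the liver, was at 3790, 4169 and 1375 in the Tsc2+/- mice against 79.7, 122 and 5640. Over 30 hepatocyte genes the summed intensity was 116500, 99950 and 20810 in the Tsc2+/- mice and 2460, 23930 and 145600 in the WT mice. WT mouse 1 was the lowest array for 26 of the 30 genes, and WT mouse 3 the highest for 21.

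Genes of resident macrophages, the phagocytes of tissues and body cavities, gave another order. C1qb, a chain of complement C1q, was at 1806, 4389 and 9429 in the Tsc2+/- mice and at 70.7, 2211 and 2276 in the WT mice. Prg4, the gene for lubricin, which macrophages of body cavities express, was at 1825, 5340 and 12110 against 114, 2926 and 2781. The summed intensity over 21 such genes was 16720, 74970 and 93600 in the Tsc2+/- mice and 3031, 28080 and 44060 in the WT mice. It was 2593 to 3839 in blood of the Fmr1 experiment. Scgb1a1, a secretory protein of the airway, was at 22.6, 18.2 and 24.2 in the Tsc2+/- mice and at 14.1, 11.2 and 1360 in the WT mice. Neither genotype was free of these transcripts, and WT mouse 1 had the lowest sum of both the hepatocyte and the macrophage genes.

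**Figure D1:**
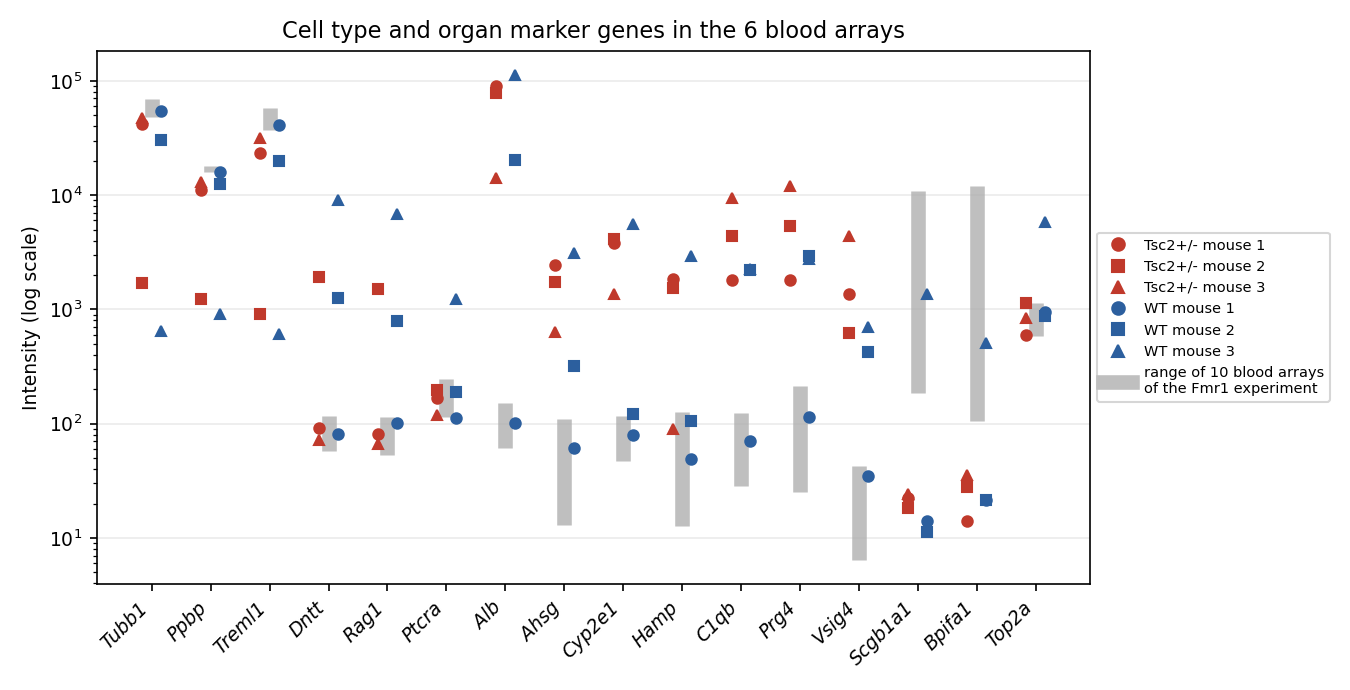
Intensity (log axis) of 16 marker genes in the 6 blood arrays, with Tsc2+/- mice in red, WT mice in blue, and a grey bar for the range of the 10 blood arrays of the Fmr1 experiment. Platelet genes (Tubb1, Ppbp, Treml1) are low in Tsc2+/- mouse 2 and WT mouse 3, Alb runs from 102 in WT mouse 1 to 112400 in WT mouse 3, and Dntt reaches 9131 in WT mouse 3.

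As a whole, WT mouse 3 correlated least with the rest of its group (Pearson r = 0.946 over all probe sets on the log2(intensity + 16) scale), followed by WT mouse 1 with 0.958, and the other 4 arrays had 0.975 to 0.981. The first principal component, with 45.7% of the variance, placed WT mouse 1 at -67.6 and WT mouse 3 at 78.8, and the 3 Tsc2+/- mice between them. Each comparison is given with all 6 arrays and without WT mouse 3. Leaving out that mouse removes the array with the highest T cell, proliferation and hepatocyte genes from the WT group, and leaves WT mouse 1, with hardly any hepatocyte or macrophage transcripts, as 1 of the 2 WT arrays.

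Tsc2, the gene with the disrupted copy, was the check of the genotype labels. Its intensity was 660, 621 and 890 in Tsc2+/- mice 1, 2 and 3, and 740, 731 and 1008 in the WT mice. The groups overlapped, and the difference of -0.19 (SE 0.22) had an exact two-sided permutation p of 0.5, where 0.1 is the smallest that 3 against 3 mice allow. Without WT mouse 3 the difference was -0.04 (SE 0.21). The genotype labels of the 6 blood arrays thus found no support in the Tsc2 signal, nor was there a value against them. Which exons the probe set reads, and whether the disrupted copy still gives RNA there, is not given in the sources used here. In the cerebellum of the same mice the difference of Tsc2 was -0.48.

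Of the 46 measured genes of the TSC complex, the mTOR complexes and their regulators, 0 had an unadjusted limma p under 0.05, which 2.14% of all 35556 probe sets had. The list had a median difference of 0.03, close to the median of 0.04 over all probe sets. The groups did not overlap for 6 of the 46, all brighter in the Tsc2+/- mice, against 4.36% of all probe sets brighter and 2.02% dimmer. Tsc1, the gene for hamartin, was at 645, 556 and 562 against 484, 575 and 603. Mtor, the kinase itself, was at 552, 496 and 469 against 374, 491 and 725. For Rptor, the scaffold of mTORC1, the values were 617, 577 and 529 against 479, 560 and 815, and for Rictor, the scaffold of mTORC2, 896, 724 and 742 against 794, 839 and 1286. The groups overlapped for each of these 4 genes, and WT mouse 3 was the highest of the WT mice. Without that mouse the list median was 0.15, and Lamtor2, a subunit of the lysosomal anchor of mTORC1, was the 1 member at p under 0.05 (0.42). In that fit 4.96% of all probe sets were brighter at that p. The increase of the list median goes with one from 0.04 to 0.11 over all probe sets.

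Over the whole array, 0 probe sets (0%) passed an adjusted p under 0.05 by limma. At an unadjusted p under 0.01, a threshold the study set on a model of both tissues, 106 (0.298%) were listed, 61 of them brighter (0.172% of all) and 45 dimmer (0.127%) in the Tsc2+/- mice. With each array centred on its median the split was 57 brighter to 73 dimmer, and after quantile normalization within the 6 arrays it was 48 to 76. At p under 0.05 there were 488 brighter (1.37%) and 272 dimmer (0.765%), and the groups did not overlap for 1549 brighter (4.36%) and 719 dimmer (2.02%). Without WT mouse 3 the count at p under 0.01 was 422 (1.19%), of which 342 were brighter (0.962%) and 80 dimmer (0.225%), and 2 probe sets (0.00562%) passed the adjusted p. Without both Tsc2+/- mouse 2 and WT mouse 3, the pair with few platelet transcripts, 304 (0.855%) were at p under 0.01 and 2 (0.00562%) passed the adjusted p. This pair was left out after the data had been seen. Of the 106 probe sets, 59 were also listed without WT mouse 3, and all 59 had the same sign. Both fits share the other arrays.

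Hepatocyte genes were among the probe sets listed without WT mouse 3, with 5 of the 30 at p under 0.01. This list was chosen after its values had been seen, so the shares set beside it are no test. None of the 30 was at p under 0.05 with all 6 arrays, with a median difference of 1.02. Without WT mouse 3 the median was 1.86, and 16 of the 30 were at p under 0.05, all brighter in the Tsc2+/- mice, against 4.96% of all probe sets brighter at that p. Cyp2e1 went from a difference of 2.88 (SE 1.69) to 4.82 (SE 0.58). Their part in the other calls made without WT mouse 3 was not tested.

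Among the 106 probe sets, 38 have a single gene name, and 11 of these also had groups that do not overlap and a brighter group mean of at least 100. The adjusted limma p of each of the 11 rounds to 1, so they are described by their values. Klrc3, a receptor of natural killer (NK) cells in the NKG2 family, showed the largest difference. It was at 321, 220 and 342 in the Tsc2+/- mice and at 98.6, 57.9 and 48.6 in the WT mice, a difference of 2.15 (SE 0.33). WT mice 2 and 3 were at or below the olfactory receptor median, so that the fold over the WT group has no exact value. The lowest Tsc2+/- value of 220 was well above the highest WT value of 98.6, and the difference was 1.94 without WT mouse 3. Its close relatives overlapped between the groups. Klrc1 was at 2518, 1123 and 1850 against 3056, 1953 and 1055, and Klrc2 at 98.4, 87.6 and 148 against 118, 73.5 and 98.4. Klrd1, the partner chain of NKG2 receptors, was at 1036, 557 and 687 against 814, 778 and 458. Probes of such similar genes can share signal, which makes the assignment to Klrc3 uncertain.

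Casp1, the protease that cleaves pro-interleukin-1 beta in inflammasomes, was at 305, 426 and 418 in the Tsc2+/- mice and at 189, 249 and 170 in the WT mice. The groups did not overlap, with a difference of 0.92 (SE 0.23), and of 0.80 without WT mouse 3. Kcns1, a modulatory potassium channel subunit, was at 193, 190 and 167 against 83.2, 106 and 128 (0.82). Pcyox1l, a relative of the enzyme that degrades prenylcysteine, was at 199, 187 and 218 against 117, 116 and 124 (0.76). Cttnbp2nl, a cortactin-binding protein, was at 122, 143 and 149 against 92.1, 90.2 and 85.6 (0.62). Ust, a sulfotransferase for chondroitin and dermatan chains, was at 300, 280 and 332 against 196, 213 and 184 (0.62).

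Of the 5 dimmer genes, Nmnat2, an enzyme of NAD synthesis, had the largest difference. It was at 56.3, 58.1 and 62 in the Tsc2+/- mice, at the level of the olfactory receptor median, and at 157, 120 and 119 in the WT mice (-1.16, SE 0.17). Gss, glutathione synthetase, was at 87.8, 103 and 81.7 against 163, 154 and 169 (-0.84). B830017H08Rik, a transcript of no known function, was at 164, 86.1 and 157 against 283, 276 and 263 (-1.07). Slc43a1, a carrier of branched-chain and other large neutral amino acids, was at 597, 750 and 791 against 1201, 1036 and 1208, a difference of -0.69 (SE 0.17), or 1.62-fold. Ehd3, which shapes recycling endosomes and lies on chromosome 17 (GRCm38.p6) as Tsc2 does, was at 1088, 946 and 933 against 1416, 1430 and 1505 (-0.56).

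**Figure D2:**
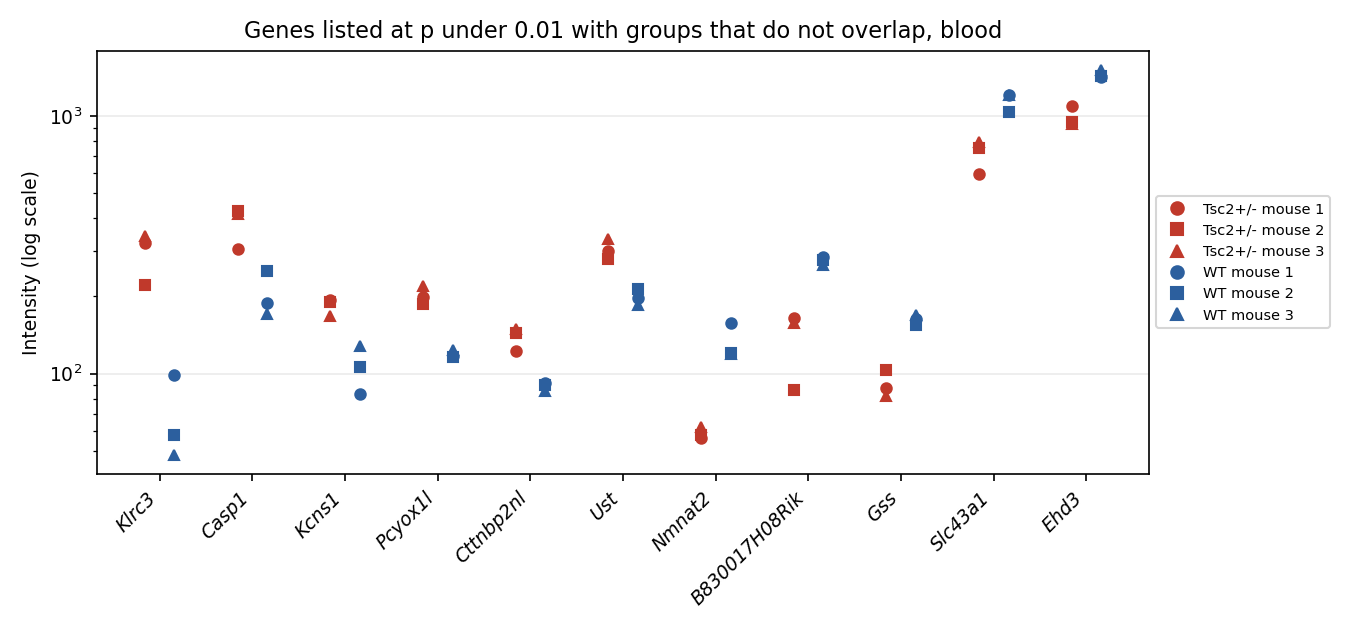
Intensity (log axis) in each of the 6 blood arrays for the 11 genes listed at p under 0.01 with a brighter group mean of at least 100, Tsc2+/- mice in red and WT mice in blue. The groups do not overlap for any of the 11, which the choice of genes fixed, and WT mouse 3 (blue triangle) lies with the other WT mice, for example at 48.6 for Klrc3 and 1505 for Ehd3.

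Leaving out WT mouse 3 kept the sign of all 11 differences, which the choice of genes whose groups do not overlap had fixed. All 11 were then at p under 0.05, and 5 at p under 0.01, on arrays that had also served to choose them. The 11 genes were set beside the same genotype comparison in the cerebellum of the same mice, where 4 had the same sign and 0 reached an unadjusted limma p under 0.05. In blood of Fmr1-KO against WT mice, with other control mice, 3 had the same sign and 0 reached that p. Casp1 had a difference of 0.46 in the cerebellum and of -0.07 in Fmr1-KO blood. Slc43a1 had a difference of 0.77 in the cerebellum, opposite to blood, and of 0.03 in Fmr1-KO blood.

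Of the list members at p under 0.05 below, 30 were counted here, with at most 4 per list and direction. Casp1, named above, and Irak2 and Irak3 are not among them. Of the 30, 7 were also at p under 0.05 without WT mouse 3. All 30 kept their sign, which was fixed where the groups do not overlap. Genes of innate immune sensing made up the largest group of list members at p under 0.05. Toll-like receptors recognise microbial lipids and nucleic acids and signal through adaptor kinases to interferon regulatory factors. Of 49 measured genes of this pathway, 6 were brighter in the Tsc2+/- mice at p under 0.05 and 0 dimmer, against 1.37% and 0.765% of all probe sets, with a list median of 0.24. Among the receptors, Tlr6 was at 502, 521 and 765 against 454, 402 and 306, and Tlr8 at 218, 246 and 419 against 172, 191 and 134. The groups did not overlap for either, with differences of 0.61 and 0.79. Unc93b1, the chaperone that brings nucleic acid sensors to endosomes, was at 2440, 3061 and 2602 against 1672, 2196 and 1670 (0.55). Irak2, a kinase of the signalling complex, was at 867, 996 and 820 against 607, 740 and 560 (0.50). Irak3, a brake on the same complex, was at 1315, 1623 and 1474 against 1148, 1211 and 987 (0.40). Irf5, a transcription factor at the end of the pathway, was at 1426, 1922 and 1573 against 976, 1233 and 944, with the lowest p of the 6 (0.64, SE 0.19). Without WT mouse 3 only Irf5 of the 6 remained at p under 0.05 (0.57), while Tlr12 (-0.96) and Irf7 (-0.88) were dimmer at that p, and the list median was 0.23. These 1 brighter and 2 dimmer of 49 stand beside 4.96% of all probe sets brighter and 1.29% dimmer in that fit.

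The inflammasome and interleukin-1 list held 2 brighter and 0 dimmer of 24, Casp1 and Nlrc4, with all 24 differences above 0 and a median of 0.42. Of all probe sets 1.37% were brighter at that p, and 58.3% of all genes had a difference above 0. Casp1 was, without WT mouse 3, the 1 member at p under 0.05 and 20 of 24 were above 0, and without both Tsc2+/- mouse 2 and WT mouse 3 there were 0 members at that p. In these fits 4.96% and 2.9% of all probe sets were brighter at that p. Tsc2+/- mouse 3 was the highest array for 16 of the 24, and the summed intensity was 11590, 11470 and 17710 against 11140, 10650 and 9271. Nlrc4, the sensor of bacterial flagellin that recruits Casp1, was at 143, 331 and 254 against 75.9, 145 and 131 (1.02), so that Tsc2+/- mouse 1 and WT mouse 2 overlapped. Nlrp3, another sensor, was at 204, 104 and 441 against 204, 163 and 69.5, and Il1b, the cytokine, at 670, 151 and 1481 against 586, 490 and 157. The groups overlapped for both. Of 28 monocyte genes, 1 was brighter, and the list median was 0.36. That gene was Fcgr3, an activating receptor for antibody complexes, at 913, 1151 and 2255 against 554, 806 and 604 (1.05). Tsc2+/- mouse 3 was the highest array for 19 of the 28 monocyte genes. Of 38 complement genes, C3ar1, the receptor of the C3a fragment, was brighter at 1164, 1660 and 3610 against 825, 1058 and 789 (1.11). Cd46, a complement regulator, was dimmer at 136, 139 and 169 against 197, 183 and 198 (-0.38). Of 50 interferon-stimulated genes, 1 was listed, Gbp3, a guanylate-binding protein, at 588, 756 and 854 against 406, 547 and 472 (0.62). The median of that list was 0.05, near the 0.04 of all probe sets. The single calls in these 3 lists stand beside 1.37% of all probe sets brighter and 0.765% dimmer. None of Nlrc4 (1.13), Fcgr3 (1.00), C3ar1 (1.03), Cd46 (-0.36) and Gbp3 (0.62) was at p under 0.05 without WT mouse 3.

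The resident macrophage genes moved with several of these values. Of the 21, 20 had a difference above 0, with a median of 1.48 (2.02 without WT mouse 3), 3 had groups that did not overlap and 0 were at p under 0.05. Of all genes 58.3% had a difference above 0, and for 4.36% of all probe sets the groups did not overlap with the Tsc2+/- mice brighter. The macrophage genes were chosen after their values had been seen, so these shares do not test them. Fcgr3, C3ar1 and Tlr8 were highest in Tsc2+/- mouse 3, as was the summed level of those genes. Tsc2+/- mouse 1 had a lower sum (16720) than WT mice 2 and 3 (28080 and 44060). Fcgr3, C3ar1 and Tlr8 were also above the WT values in every Tsc2+/- mouse, as were Irf5, Irak2, Unc93b1 and Casp1. All were named for their difference between the genotypes, and for Casp1 the choice of genes had fixed this. The part of the macrophage transcripts in the differences was not tested. Without both Tsc2+/- mouse 2 and WT mouse 3, 0 of the 49 Toll-like receptor genes were brighter and 1 was dimmer at p under 0.05, against 2.9% and 1.28% of all probe sets, with a median of 0.23.

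Lysosomal and sphingolipid genes were mostly above 0 as well. Lysosomes are the site where mTORC1 is switched on and where sphingolipids are broken down. Of 69 lysosomal genes, 61 had a difference above 0, and 3 were brighter and 0 dimmer at p under 0.05, against 1.37% and 0.765% of all probe sets, with a median of 0.26. Over all genes with a name 58.3% had a difference above 0. Tsc2+/- mouse 3 was the highest array for 48 of the 69. Summed over the list, the intensity was 91750, 98280 and 127800 in the Tsc2+/- mice against 85360, 90940 and 87750. Asah1, acid ceramidase, was at 802, 1298 and 1920 against 649, 777 and 641 (0.88). Arsa, which removes sulfate from sulfatides, was at 271, 256 and 404 against 182, 221 and 203 (0.59), and Dnase2a, the acid DNase, at 798, 757 and 730 against 525, 665 and 462 (0.48). None of the 3 overlapped between the groups. Of 42 sphingolipid genes, 4 were brighter and 0 dimmer, with a median of 0.18. Beside Asah1 and Arsa, which both lists hold, they were Cers4, a ceramide synthase, at 537, 636 and 618 against 426, 492 and 446 (0.39), and Sgms1, which makes sphingomyelin, at 1003, 1316 and 1280 against 784, 983 and 727 (0.53). The medians without WT mouse 3 were 0.29 and 0.24, no member of either list was brighter at p under 0.05, and Ctsf, a lysosomal protease, was dimmer (-1.33). In that fit 4.96% of all probe sets were brighter and 1.29% dimmer at that p.

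**Figure D3:**
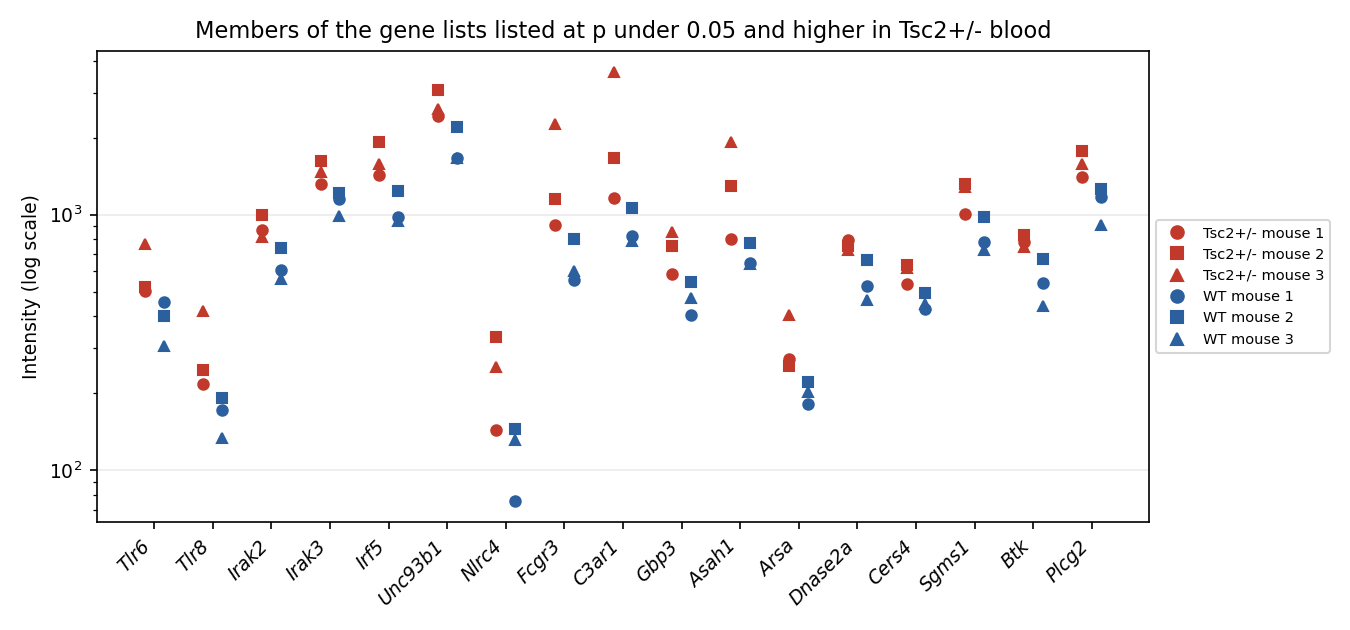
Intensity (log axis) in the 6 blood arrays for 17 genes of the innate immune, lysosomal, sphingolipid and B cell receptor lists that were brighter in Tsc2+/- mice (red) than in WT mice (blue) at p under 0.05. The groups are apart by small steps, as for Irf5 with 1426 as the lowest Tsc2+/- value and 1233 as the highest WT value, and they overlap for Nlrc4.

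The lymphocyte lists shared no direction, with 18 of 21 T cell genes below 0 and 20 of 22 B cell genes above 0. Without WT mouse 3, 16 of the 22 B cell genes were above 0. Of 21 T cell genes 0 were at p under 0.05. The list median was -0.53, and 18 of the 21 were highest in WT mouse 3. Cd3e, a chain of the T cell receptor complex, was at 5220, 4384 and 3708 against 5112, 5770 and 9471. Without that mouse the median was -0.21. Of 22 B cell genes 0 were listed, with a median of 0.26 (0.18 without WT mouse 3), and Cd79a, a B cell receptor chain, was at 5518, 6961 and 4630 against 5003, 5300 and 5542. Of 22 genes that signal from the B cell receptor, 21 had a difference above 0 (19 without WT mouse 3), against 58.3% of all genes. The groups did not overlap for 6, all brighter in the Tsc2+/- mice, against 4.36% of all probe sets brighter. At p under 0.05, 2 were brighter and 0 dimmer, against 1.37% and 0.765% of all probe sets. These were the kinase Btk, at 779, 835 and 745 against 540, 672 and 440 (0.53), and the phospholipase Plcg2, at 1403, 1771 and 1577 against 1170, 1263 and 911 (0.51). Both are also used by myeloid cells, and without WT mouse 3 neither was at p under 0.05 (0.38 and 0.38). Of 21 NK cell genes 0 were listed, and the median went from 0.06 to -0.24 without WT mouse 3.

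Of 68 proliferation genes, 67 had a difference below 0 and 61 were highest in WT mouse 3. The groups did not overlap for 10, all dimmer in the Tsc2+/- mice, against 2.02% of all probe sets dimmer. Without WT mouse 3, 25 of the 68 were above 0. The median of the list was -0.63 with all 6 arrays and -0.11 without WT mouse 3. Cdca3, which triggers mitotic entry, was the 1 member at p under 0.05, at 532, 550 and 567 against 710, 790 and 1084 (-0.62), and it was also at that p without WT mouse 3 (-0.45). That 1 of 68 stands beside 0.765% of all probe sets dimmer with all arrays and 1.29% without WT mouse 3. Platelet genes moved most when that mouse was left out. Their median was 0.05 with all arrays, -1.22 without WT mouse 3, when Tsc2+/- mouse 2 was the only array low in platelet genes, and -0.16 without both, and 0 of 23 were at p under 0.05 in each of the 3 fits.

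Of 38 measured erythroid genes, 34 had a difference below 0 and 1 was at p under 0.05, with a median of -0.18. Car1, carbonic anhydrase 1, which maturing red cells make in quantity, was at 514, 551 and 744 against 821, 846 and 830 (-0.48). The 3 Tsc2+/- values were below all 3 WT values, and 1 of 38 stands beside 0.765% of all probe sets dimmer at that p. Car1 was not at p under 0.05 without WT mouse 3 (-0.49). Without WT mouse 3 the median was -0.36 and 5 of the 38 were dimmer at p under 0.05, against 1.29% of all probe sets dimmer at that p. They were Tfrc, the transferrin receptor, at 432, 414 and 596 against 829 and 828 in WT mice 1 and 2, and Ermap, Epor, Rhag and Kel. WT mouse 3 had 549 for Tfrc, within the Tsc2+/- range. Among neutrophil genes, 2 that code for proteins of specific granules were dimmer at p under 0.05, of 28 measured, against 0.765% of all probe sets. Ltf, lactoferrin, was at 77.1, 112 and 380 against 365, 1381 and 947 (-2.39), and Ngp, another protein of specific granules, at 439, 352 and 929 against 767, 3501 and 2469 (-1.84). The groups overlapped by 1 mouse each for both genes, and the list median was 0.03. Neither Ltf (-2.25) nor Ngp (-1.65) was at p under 0.05 without WT mouse 3, where the list median was -0.15. S100a8, a calcium-binding protein that neutrophils hold in bulk, was at 946, 225 and 3472 against 1152, 1426 and 446.

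The remaining lists held 1 or 2 members at p under 0.05 each, beside 1.37% of all probe sets brighter and 0.765% dimmer. Of 78 cytokine, chemokine and receptor genes 1 was brighter, Il15ra, the chain that presents interleukin-15, at 383, 381 and 451 against 263, 312 and 302 (0.47, and 0.49 without WT mouse 3). Of 28 heat shock chaperones 1 was brighter, Hspa5, the chaperone of the endoplasmic reticulum, at 2159, 2347 and 3091 against 1689, 1490 and 1821 (0.59, and 0.66 without WT mouse 3). Klf2, which keeps lymphocytes quiescent, and Npas4, an activity-dependent factor of neurons, were the members of the 32 immediate early genes. Klf2 was at 3038, 3052 and 2613 against 2098, 2342 and 1392 (0.61), and Npas4 at 62.4, 63.8 and 52.6 against 78.5, 74.3 and 90 (-0.44). The Tsc2+/- values of Npas4 were near the olfactory receptor median of 52.3 to 60, so that its difference has no exact value. Birc3, an inhibitor of apoptosis, was the 1 of 39 apoptosis genes, at 1672, 2257 and 1695 against 1336, 1405 and 1299 (0.46). Rps19, a protein of the small ribosomal subunit, was the 1 of 56 ribosomal protein genes, at 780, 791 and 724 against 588, 634 and 580 (0.35). All 6 of these genes had groups that did not overlap. When WT mouse 3 was left out, Il15ra and Hspa5 were at p under 0.05, while Klf2 (0.38), Npas4 (-0.36), Birc3 (0.44) and Rps19 (0.33) were not. In that fit 0 ribosomal protein genes were brighter and 2 were dimmer, Rps2 (-0.40) and Rplp2 (-0.39), and Fas (0.86) and Aifm1 (0.42) were the apoptosis genes at p under 0.05. Of all probe sets 4.96% were brighter and 1.29% dimmer at that p without WT mouse 3.

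Eps8l1, a relative of the actin regulator Eps8, was at 387, 271 and 182 in the Tsc2+/- mice and at 104, 80 and 173 in the WT mice. The difference was 1.24 (SE 0.40), and 1.55 (SE 0.37) without WT mouse 3, whose 173 was close to the lowest Tsc2+/- value. The other 3 measured members of the family were not at p under 0.05. Eps8 itself was at 240, 1042 and 853 against 247, 523 and 588. Of 20 neuronal and glial genes, which are not typical of blood, 1 was brighter and 1 dimmer. Syp was at 83.7, 98.2 and 96.6 against 39.8, 30.1 and 74.6, and Pcp2 at 25.2, 43.3 and 53.3 against 70.6, 76.8 and 72, values on both sides of the olfactory receptor median. Snap25 (4.09 to 33.9), Syt1 (8.2 to 31.9) and Gabra6 (1.17 to 15.5) were below that median in all 6 arrays. The 50 measured genes beside Tsc2 on chromosome 17 (GRCm38.p6) held 1 brighter and 0 dimmer, against 1.37% and 0.765% of all probe sets, with a median of 0.06. That gene was Syngr3, a synaptic vesicle protein, at 66.4, 152 and 71.2 against 25.8, 18.2 and 42.8. All 3 WT values were below the olfactory receptor median, so that its difference has no exact value. The same list held, without WT mouse 3, 4 brighter and 1 dimmer, against 4.96% and 1.29% of all probe sets, with 40 of 50 above 0 and a median of 0.18.

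The lists not yet described had no member at p under 0.05 with all 6 arrays. Glycolysis (18 genes, median 0.13), sterol synthesis (19, 0.09), ATF4 targets (23, 0.00), amino sugar metabolism (22, 0.22), the respiratory chain and ATP synthase (73, -0.07), MHC class I (20, 0.16) and class II presentation (14, 0.26) were among them. So were glucocorticoid response genes (19, 0.25), clock genes (20, 0.34), and genes of basophils, eosinophils and mast cells (14, 0.08). In the fit without WT mouse 3, when 4.96% of all probe sets were brighter and 1.29% dimmer at that p, 3 of the 19 sterol genes were brighter, Sqle (0.61), Lss (0.47) and Insig1 (0.79), with a list median of 0.23. So were 3 of the 20 clock genes, Nr1d2 (0.81), Ciart (1.62) and Csnk1e (0.38), with a median of 0.43. Of the ATF4 targets Gpt2 (1.23) and Cth (1.30) were brighter and Mthfd2 (-0.60) dimmer, and Pgm3 (0.74) of amino sugar metabolism and Ndufs5 (0.68) of the respiratory chain were brighter. Over the 34 lists, 29 medians were above 0 with all arrays and 25 without WT mouse 3, and 6 changed sign. Of the 1066 distinct genes in the lists, 3.1% were at p under 0.05, against 2.14% of all probe sets.

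**Figure D4:**
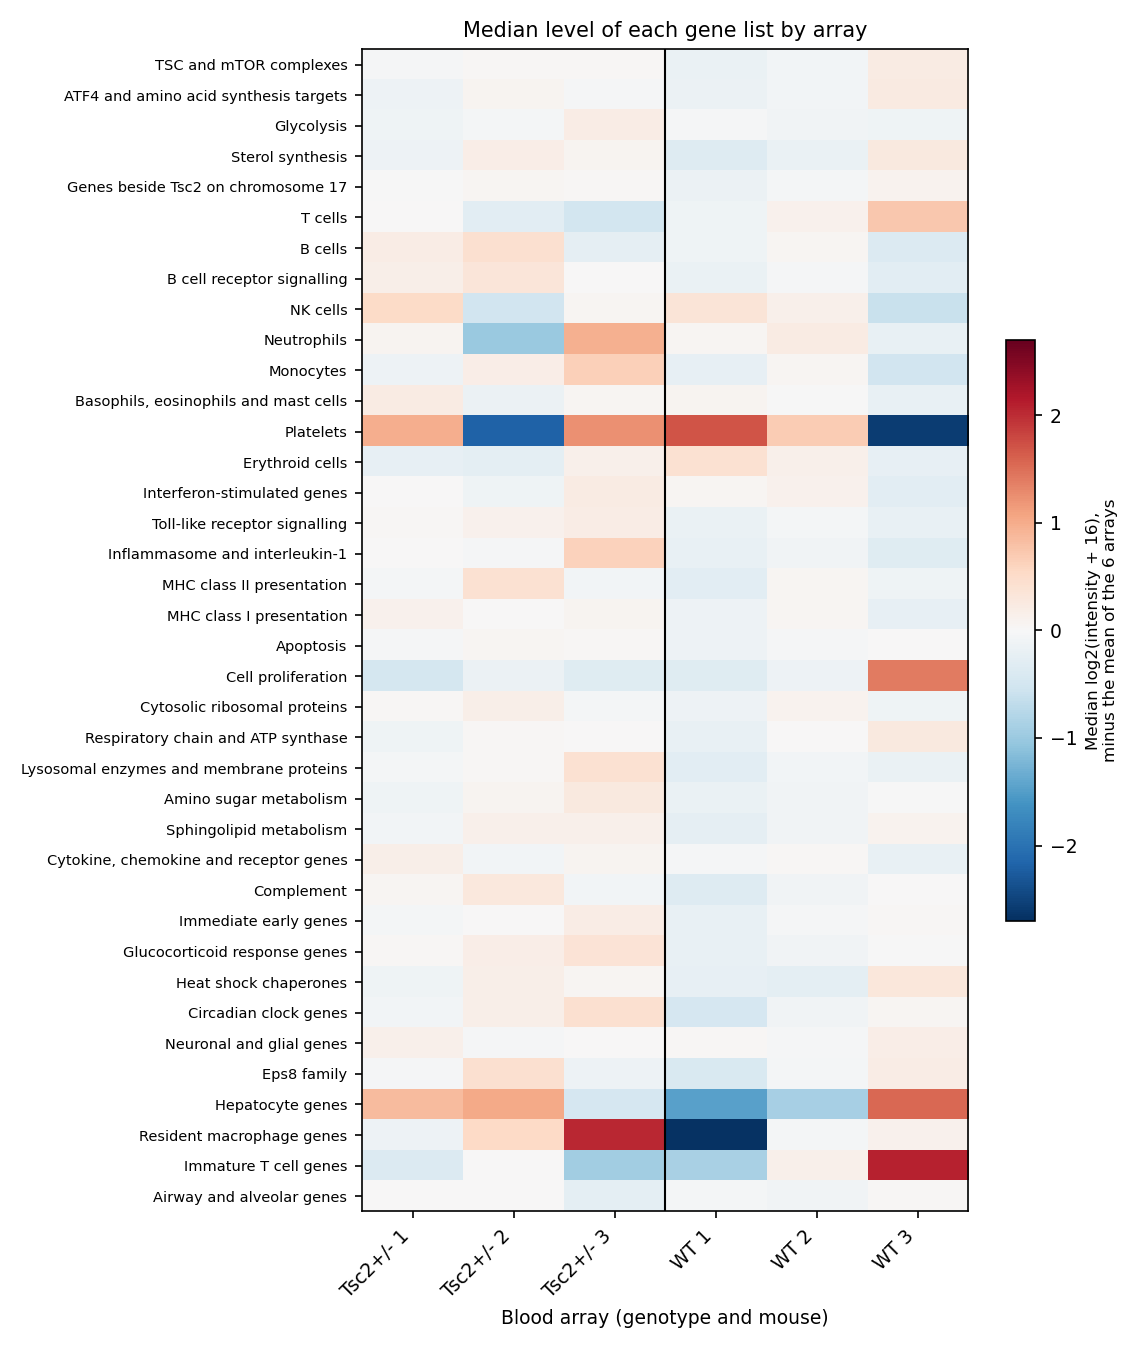
Median level of each gene list in each blood array, as log2(intensity + 16) of its members minus their mean over the 6 arrays (red above, blue below), with the Tsc2+/- mice left and the WT mice right of the line. The strongest colours follow single mice and not the genotype: platelets at -2.18 in Tsc2+/- mouse 2 and -2.56 in WT mouse 3, resident macrophage genes at 2.04 in Tsc2+/- mouse 3 and -2.66 in WT mouse 1.

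**Figure D5:**
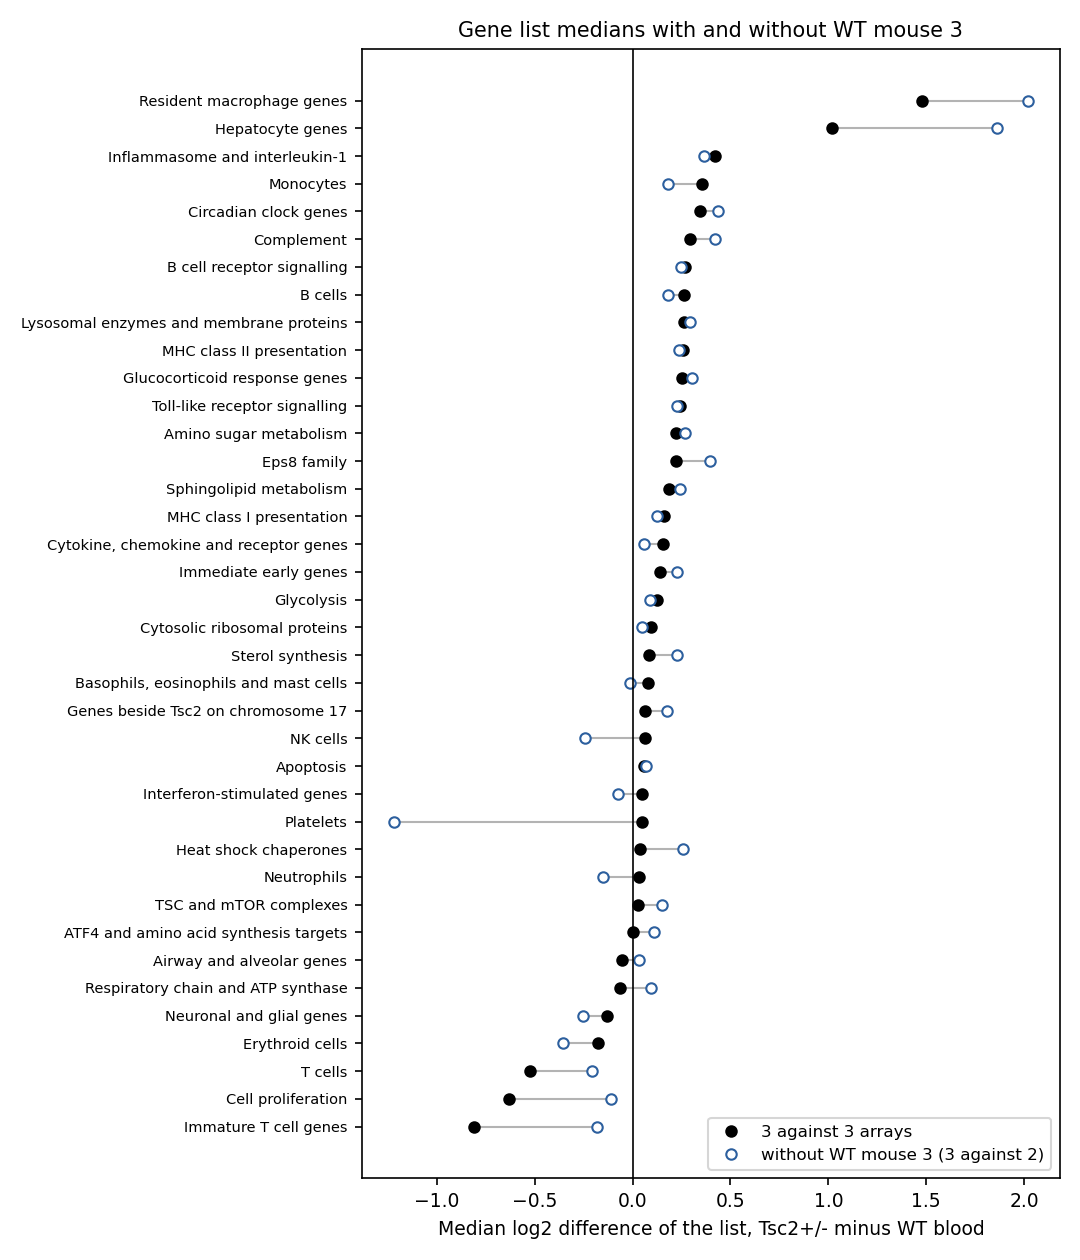
Median log2 difference of each gene list, Tsc2+/- minus WT blood, with all 6 arrays (black) and without WT mouse 3 (open). Platelets go from 0.05 to -1.22 and proliferation from -0.63 to -0.11, while inflammasome genes (0.42 and 0.36) and lysosomal genes (0.26 and 0.29) stay close to each other. Tsc2+/- mouse 3, the highest array for 16 of 24 inflammasome and 48 of 69 lysosomal genes, is in both fits.

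Whether the genotype effect of blood differs from that of the cerebellum was tested by the interaction of genotype and tissue over the 12 arrays of the experiment. This fit took the arrays as independent, although each mouse gave both tissues. By limma 2 probe sets (0.00562%) passed an adjusted p under 0.05, neither with a gene name, and 212 (0.596%) an unadjusted p under 0.01. With the mouse as a block, 2 passed the adjusted p and 257 were at p under 0.01. Against the 10 blood arrays of the Fmr1 experiment, the interaction of genotype and experiment gave 1 probe set (0.00281%) without a name and 181 (0.509%) at p under 0.01. Eps8l1 had a difference of 0.82 in the cerebellum of the same mice and of -0.50 in Fmr1-KO blood, with an adjusted p of 1 for the interaction with the Fmr1 experiment. Klrc3 did not exceed 30.01 in blood of the Fmr1 experiment.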

How the data were processed

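Total RNA of whole blood (Trizol, 250 ng per array) was hybridised to Affymetrix Mouse Gene 1.0 ST arrays. The authors deposited PLIER intensities on a linear scale, computed with Affymetrix Power Tools after quantile normalization over all 32 arrays. Tool versions are not given in the sources used here. Because PLIER can return values near 0, small differences between dim probe sets become large on the log2 scale, and normalization over both tissues can shift the blood arrays.

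Here the log2 of each deposited intensity was taken with no offset, and limma 3.58.1 (lmFit and eBayes, R 4.3.3) was fitted to the 3 Tsc2+/- and 3 WT blood arrays for 35556 probe sets. Benjamini-Hochberg adjustment ran over all of them. Where the text says p under 0.01 or 0.05, the p is unadjusted. P-values measure the spread between the mice. The fit without WT mouse 3 used the same model.

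The platform annotation gave 1 gene name for 21789 probe sets, several for 1621 and none for 12146, and 21698 names were matched to a RefSeq table (GRCm38.p6), which was used for symbols and chromosomes. Genes with several probe sets were represented by the brightest. No sequence was used.

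The members and lists were chosen with earlier results of these data known. The hepatocyte, macrophage, immature T cell and airway lists, and the fits without Tsc2+/- mouse 2 together with WT mouse 3 or with an offset and without WT mouse 3, were chosen after seeing the data. Named genes had 1 name, p under 0.01, groups that do not overlap and a brighter mean of at least 100 (up to 12 in each direction), or were list members at p under 0.05 (up to 4 in each direction) or defining markers. The fit was tested on simulated data. Alternatives were offsets of 1 and 16, centring, quantile normalization, a minimum mean of 64, 1-name probe sets, trend and robust limma, array weights, more arrays, a test with unequal variances per probe set, a replicate block and leaving out each mouse. The number of arrays limits the precision.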

Additional observations from a re-analysis of the deposited data

Results flagged for a closer look

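Probe sets 10563915 and 10563929, which hold the same values and have no gene name here, differed in their genotype effect between blood and cerebellum. The interaction was -11.8 (SE 0.845, limma, adjusted p = 0.0013), from a blood difference of -11.4 and a cerebellum difference of 0.34. Their blood intensities ran from 0.00122 to 12.5 and their cerebellum intensities from 2580 to 4540. With 16 added before log2 the interaction was -0.91 (limma, adjusted p = 1).

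Probe set 10342883, also without a gene name, differed in its effect between Tsc2+/- and Fmr1-KO blood, with an interaction of -10.5 (SE 1.09, limma, adjusted p = 0.00753). In the 6 blood arrays its intensity did not exceed 0.00239 (lowest 0.00083), while blood of the Fmr1 experiment had 0.00075 to 7.01. With 16 added before log2 the interaction was -0.29 (limma, adjusted p = 1).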

How the results depend on the processing

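The count at an adjusted p under 0.05, 0 with all 6 arrays, was 1 after quantile normalization, 5 with array weights, 6 with the 12 arrays of the experiment in 1 fit, and 0 to 2 when 1 mouse was left out. It was 2 without Tsc2+/- mouse 2 and WT mouse 3. Welch's test per probe set, which the study used for single genes and not for its p under 0.01 across the array, gave 0 after adjustment and 82 at p under 0.01. The 106 probe sets at p under 0.01 became 47 among probe sets with a mean of at least 64 and 55 among those with 1 gene name, where fewer were tested. They became 67 with trend and robust limma, 1135 with array weights and 328 with 12 arrays, and the cause was not tested. Leaving out 1 mouse gave 104 to 422, the highest without WT mouse 3, 437 with 16 added as well, and 304 without Tsc2+/- mouse 2 and WT mouse 3. The difference of Tsc2 was 0.0595 in that last fit, above 0, and -0.352 to -0.042 when 1 mouse was left out.

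The 2 probe sets of the tissue interaction became 2 to 16 when 1 mouse was left out, with 9 without Tsc2+/- mouse 2 and 16 without WT mouse 3. The 1 probe set of the interaction with the Fmr1 experiment became 0 with 16 added, 2 with arrays centred, and 0 to 5 when 1 mouse was left out, the highest without WT mouse 3.

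The mouse numbers did not pair the blood samples of Tsc2+/- mice with those of WT mice. Same-numbered mice correlated at 0.195, -0.147 and -0.214 in their deviations from the group means. With the replicate block, 123 probe sets were at p under 0.01 and 2 passed the adjusted p. Over the alternatives, the named genes other than Tsc2 kept their direction in all values, 491 on the same side of the threshold and 327 no longer past it. Where the groups do not overlap, leaving out a mouse cannot change the direction. Trend and robust limma, more arrays, the replicate block, Welch's test and the probe set filters leave the difference itself unchanged, so its direction was fixed there. Small differences between dim probe sets are limited by signal over background.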

Other observations

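Some genes fell into separate levels between single mice, on a background that mixes C57BL/6J with another strain. They were chosen after their values were seen, and a link of these levels to the strain background was not tested. Trim12a, a member of the tripartite motif family, was at 1341, 20.8 and 10.9 in Tsc2+/- mice 1, 2 and 3 and at 15.8, 20.7 and 1209 in the WT mice, against 1058 to 1799 in blood of the Fmr1 experiment, whose mice are C57BL/6 congenic. Tsc2+/- mouse 1 and WT mouse 3 were at that high level and the other 4 mice were not. Gm4759 had the same pair of mice on top, at 5118, 302 and 173 against 247, 276 and 2625.

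Apobec3, a deaminase that restricts retroviruses, was at 3479, 3266 and 1678 in the Tsc2+/- mice and at 1510, 1961 and 699 in the WT mice. Apol10a, an apolipoprotein L gene, was at 2377, 2100 and 1894 against 2251, 1762 and 248, and D730005E14Rik at 928, 776 and 387 against 345, 405 and 36.6. WT mouse 3 was the lowest array for all 3 genes.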
